A study of Homo sapiens with 18 samples.

Results

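The genes described here make glutathione or supply the cysteine it is built from: SLC7A11 and SLC3A2 (cystine uptake), GCLC, GCLM and GSS (synthesis), GSR (recycling), CHAC1 (breakdown), and CTH and CBS (cysteine made from methionine). They were taken by symbol from the count tables, which list 43735 genes, and all 9 were found and passed the filter on low counts, as 9 of 14281 genes tested. RNA was taken from a pair of human myeloma lines of the same origin, MM1S, which responds to glucocorticoids, and MM1R, which resists them. Each line was left untreated, given 5 µM RSL3 for 3 h, or given 2 µM Fer-1 (ferrostatin-1) for 2 h ahead of RSL3, with 3 libraries in each of the 6 groups. Replicates 1, 2 and 3 are cells of passages 4, 6 and 7 in MM1R and of passages 16, 22 and 23 in MM1S, so that every passage has a library of each treatment. RSL3 inhibits GPX4, and Fer-1 traps lipid radicals. No group here received Fer-1 without RSL3, so the effect of Fer-1 itself and its effect on the response to RSL3 cannot be told apart. The replicates of a line are told apart by their passage, and p-values measure the spread between passages.

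Glutathione is a tripeptide of glutamate, cysteine and glycine, and GPX4 uses it to reduce lipid peroxides in membranes, the step that RSL3 blocks and whose loss leads to ferroptosis. Cysteine is usually the limiting building block. It enters cells as cystine through the system xc- exchanger, made of the transport chain SLC7A11 and the membrane anchor SLC3A2, or is made from homocysteine by CBS and CTH. Glutamate-cysteine ligase, with the catalytic subunit GCLC and the modifier subunit GCLM, makes the first bond, GSS adds glycine, GSR reduces the oxidised dimer, and CHAC1 cleaves glutathione inside the cell. NRF2 and ATF4 are transcription factors widely known to act on several of these genes, NRF2 through antioxidant response elements and ATF4 through C/EBP-ATF response elements.

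Promoter sequence from RefSeq (build GRCh38.p14) was matched by symbol for 6 of the 9 genes, and the 250 bases before the start site were searched on both strands for the antioxidant response element core TGACNNNGC and the C/EBP-ATF response element TGATGNAA. The stretches below are those of the 3 genes that both rose with RSL3 and held a match, which is in capitals. The SLC3A2 stretch is chr11:62881449-62881698 on the plus strand, 1 of 3 promoters listed, with the core from -37 to -29, and its first 7 letters are also those of the AP-1 site. After the start site, in bases not printed, this SLC3A2 promoter also held the C/EBP-ATF element on the opposite strand, from 38 to 45. The other SLC3A2 promoters held neither motif. The GCLM stretch is chr1:93909431-93909680 on the minus strand, with the core on the opposite strand from -34 to -26. The CHAC1 stretch is chr15:40953221-40953470 on the plus strand, with the C/EBP-ATF element on the opposite strand from -209 to -202.
SLC3A2: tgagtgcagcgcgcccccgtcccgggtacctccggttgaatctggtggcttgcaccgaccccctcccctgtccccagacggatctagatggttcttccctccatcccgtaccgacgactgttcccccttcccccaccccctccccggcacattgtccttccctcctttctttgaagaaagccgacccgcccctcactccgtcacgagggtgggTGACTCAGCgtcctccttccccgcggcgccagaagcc
GCLM: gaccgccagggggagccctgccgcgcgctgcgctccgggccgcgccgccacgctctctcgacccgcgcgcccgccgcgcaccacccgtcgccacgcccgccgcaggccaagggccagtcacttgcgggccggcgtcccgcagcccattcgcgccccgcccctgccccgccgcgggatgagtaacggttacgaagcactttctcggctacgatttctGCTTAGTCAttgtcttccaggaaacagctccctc
CHAC1: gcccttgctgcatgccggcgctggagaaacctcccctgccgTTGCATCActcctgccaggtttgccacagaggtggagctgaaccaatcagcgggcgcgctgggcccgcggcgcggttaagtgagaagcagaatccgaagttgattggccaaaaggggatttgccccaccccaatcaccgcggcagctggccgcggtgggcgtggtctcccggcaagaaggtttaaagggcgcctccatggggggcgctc
The GCLC and CTH promoters held neither motif in this window, and 1 of the 3 CBS promoters held the antioxidant response element core from -83 to -75. Of all 35116 promoters in the table, 10.9% held the core and 3.14% the C/EBP-ATF element before the start site. These matches are letters in a window and are not shown to be bound sites. SLC7A11, GSS and GSR were not analysed for motifs.

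Total counts lay between 17635438 and 19368343 a library (median 18564719). Levels are CPM, a library's counts over its TMM-scaled total. All 8 plasma cell markers (SDC1, TNFRSF17, IRF4, PRDM1, XBP1, MZB1, CD38 and SLAMF7) were above 1 CPM in every library. They summed to 4381 to 6243 CPM, against 26.9 to 46.8 CPM for 6 markers of other cell types. Of those 6, 3 were also above 1 CPM in every library, PECAM1 (9.78 to 24.9 CPM), CD3E (3.26 to 11.5 CPM) and HBB (3.39 to 12.7 CPM). COL1A1 was at 0.451 to 19.5 CPM, EPCAM at 0.313 to 1.51 CPM and CD14 at 0 to 0.382 CPM. One library, replicate 2 of MM1R with Fer-1 + RSL3, stood apart from its label. Over the 4 genes that mark MM1S it read 49.98% of the MM1S level (quartiles 47.8% and 52.2%), whereas the other libraries read -0.755% to 1.09% of the opposite line, and its NR3C1 level, the glucocorticoid receptor gene that is low in MM1R, was 50.2 CPM against 16.9 and 15.3 CPM in the other libraries of its group. The fits of the MM1R and averaged Fer-1 + RSL3 comparisons were repeated without it. In each line 1 RSL3 library stood apart for HMOX1, the heme oxygenase gene, namely MM1S replicate 1, with 2298 CPM against 310.2 and 434 CPM, and MM1R replicate 3, with 1404 CPM against 237 and 243 CPM. Without MM1R RSL3 replicate 3, 5 of the 9 genes rose with RSL3 in MM1R, CTH being lost (FDR 0.0642). Over all genes tested, 127 of 14642 rose in that fit, against 286 of 14281 with all libraries. In bulk RNA, fewer cells of a kind and less RNA per cell cannot be told apart.

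RSL3 raised the cystine exchanger, both ligase subunits, CHAC1 and CTH, and left GSS near its starting level. Averaged over both lines, 6 of the 9 genes rose and 0 fell in the quasi-likelihood test of edgeR, with FDR values adjusted over all genes tested by the Benjamini-Hochberg method (FDR under 0.05), where 8.7% of all genes tested rose. The median log2 fold change was 1.20 over the 9 genes and near 0 over all genes. In MM1R cells the same 6 rose (background 2%), and in MM1S cells 5 rose (background 2.5%), CHAC1 being the exception at an FDR of 0.0575. For these 6 genes every RSL3 library lay above every untreated library of its line in both lines, as did 6.13% of all genes tested. The study names CHAC1 and SLC7A11 for these same libraries, so their direction is not independent evidence. The test of the difference in response between the lines called 0 of the 9 genes (0 at an unadjusted p under 0.05, background 0%, with 222 of all genes at an unadjusted p under 0.05).

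**Figure D1:**
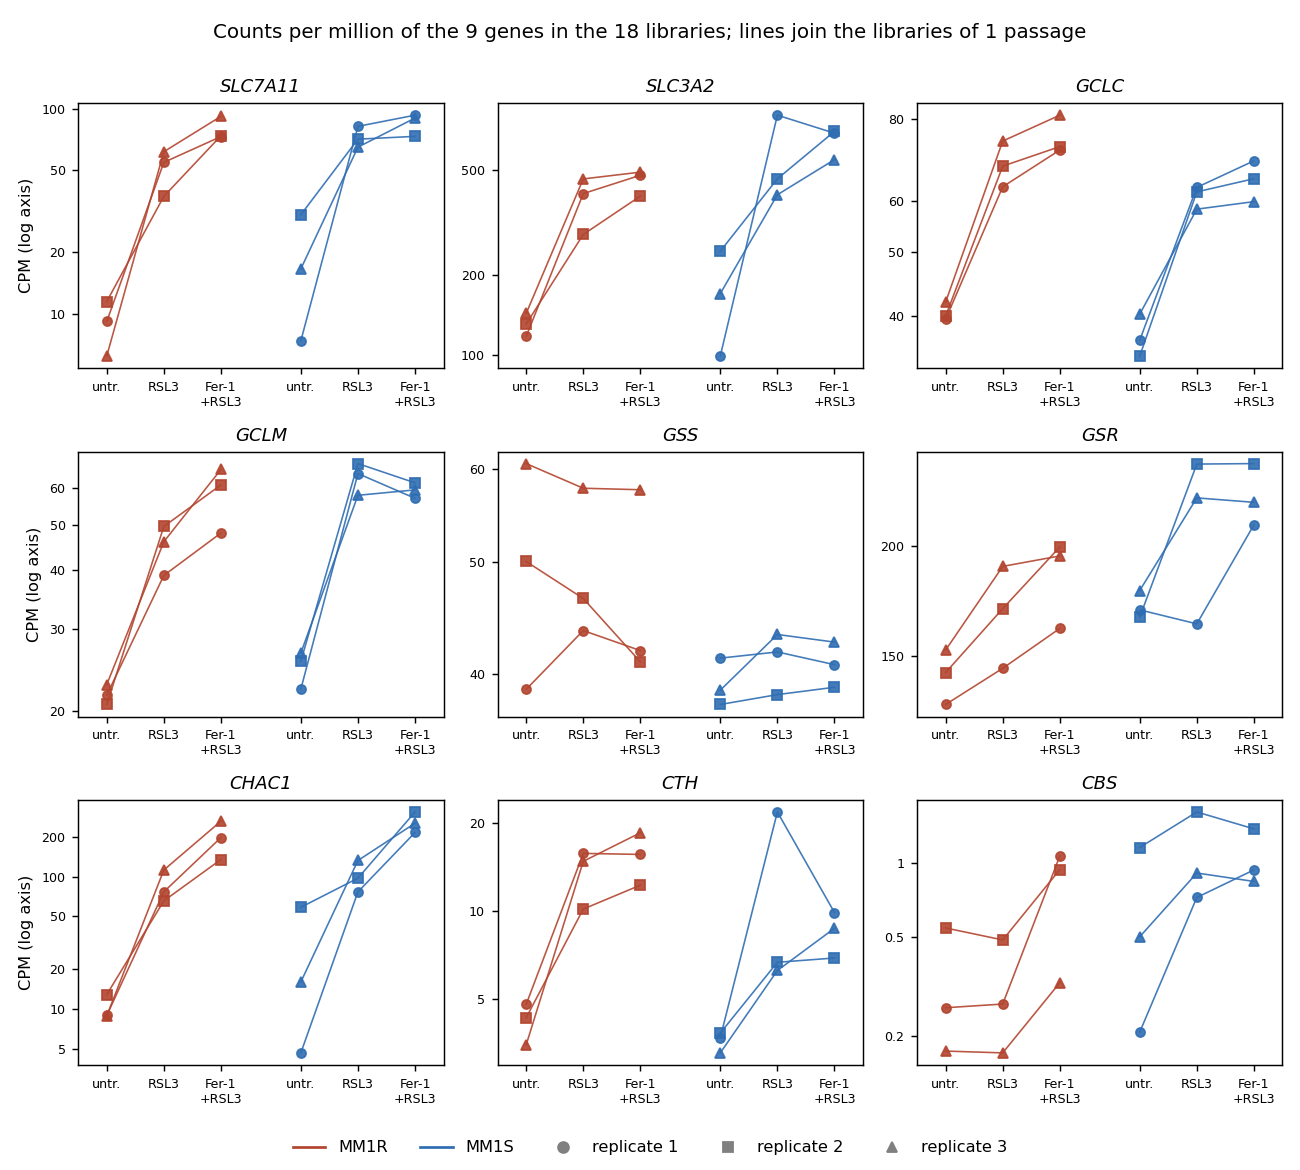
Level of each gene in CPM (log axis, with its own range in each panel) for untreated, RSL3 and Fer-1 + RSL3 libraries of MM1R (red) and MM1S (blue). Points are single libraries, marker shapes are replicates and lines join libraries of the same passage. In all panels but GSS, GSR and CBS, the untreated points lie below all RSL3 points of the line.

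SLC7A11 (chr4:139085251-139163503 in hg19, minus strand), the transport chain of system xc-, had one of the steepest rises. Untreated MM1R libraries held 9.15, 11.4 and 6.20 CPM in replicates 1 to 3, RSL3 libraries 54.7, 37.3 and 61.6 CPM, and Fer-1 + RSL3 libraries 73.1, 73.7 and 91.7 CPM. In MM1S cells the corresponding levels were 7.36, 30.4 and 16.5 CPM, then 82.0, 71.0 and 64.9 CPM, then 92.9, 73.2 and 90.0 CPM. Untreated MM1S replicate 2 was the highest untreated library of either line, and it lay under every treated library, the nearest being MM1R RSL3 replicate 2. The log2 fold change with RSL3 was 2.52 ± 0.36 (SE) in MM1R cells, a 5.72-fold rise (FDR 0.00309), and 2.01 ± 0.34 in MM1S cells, a 4.02-fold rise (FDR 0.00612). Within passages the log2 difference between RSL3 and untreated ran from 1.22 (MM1S passage 22) to 3.46 (MM1S passage 16). The response in MM1R exceeded that in MM1S by 0.51 on the log2 scale (95% interval -0.50 to 1.53). An antisense gene, SLC7A11-AS1, overlaps 7921 exonic bases of SLC7A11 but held at most 26 counts in a library, against 107 counts or more for SLC7A11.

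SLC3A2 (chr11:62623476-62656352 in hg19, plus strand), the anchor chain that system xc- shares with other amino acid carriers and whose promoter is printed above, rose less steeply from a higher level. Its levels in MM1R cells were 118, 131 and 143 CPM untreated, 406, 285 and 461 CPM with RSL3, and 476, 397 and 489 CPM with Fer-1 + RSL3. In MM1S cells they were 99.1, 246 and 170.3 CPM, then 801, 461 and 402 CPM, then 685, 696 and 545 CPM. The highest value, in MM1S RSL3 replicate 1, came from the library that also stood out for HMOX1. The log2 fold change with RSL3 was 1.55 ± 0.29 in MM1R (FDR 0.00923) and 1.69 ± 0.29 in MM1S (FDR 0.00577), or 2.94-fold and 3.23-fold. Without untreated MM1R replicate 1 the MM1R value was 1.48 (FDR 0.0546). The MM1S value was 1.33 without MM1S RSL3 replicate 1 and 2.05 without untreated MM1S replicate 2. Those were its extremes with libraries left out in turn, at FDRs of at most 0.0317.

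Both chains of the exchanger thus rose, SLC7A11 more than its anchor in every passage of both lines. Per kilobase of transcript, SLC3A2 stood at 69.3 ± 6.88 CPM per kb in untreated MM1R and 91.2 ± 39.0 in untreated MM1S (SD, n = 3), whereas SLC7A11 stood at 0.926 ± 0.272 and 1.87 ± 1.20. With RSL3 SLC3A2 reached 203.6 ± 47.8 and 294 ± 114 CPM per kb, and SLC7A11 5.31 (3.87 to 6.39) and 7.53 ± 0.897. The ratio of SLC7A11 to SLC3A2 counts within a library, which does not depend on scaling, was 0.0432 to 0.0874 in untreated MM1R and 0.131 to 0.135 with RSL3, without overlap. In MM1S cells it was 0.0742 to 0.123 untreated and 0.102 to 0.162 with RSL3, so that the groups overlapped, but within each of the 3 passages the RSL3 library had the higher ratio (0.102 against 0.0742, 0.154 against 0.123 and 0.162 against 0.0969).

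The ligase subunits rose in every passage with little spread. GCLM (chr1:94350755-94375012 in hg19, minus strand), the modifier subunit that lets the ligase work at low glutamate, was at 21.7, 20.7 and 22.8 CPM in untreated MM1R and at 39.0, 49.7 and 46.1 CPM with RSL3. Its MM1S levels were 22.3, 25.6 and 26.7 CPM untreated and 64.4, 67.7 and 57.9 CPM with RSL3. The untreated groups of both lines lay together and the treated ones well above them. The log2 fold changes were 1.05 ± 0.13 in MM1R (2.07-fold, FDR 0.00119) and 1.35 ± 0.13 in MM1S (2.55-fold, FDR 4.97e-05). Averaged over both lines GCLM had the smallest FDR of the 9 genes, 1.62e-06, at a log2 fold change of 1.20 ± 0.09.

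GCLC (chr6:53362139-53481768 in hg19, minus strand), the catalytic subunit, moved less. It was at 39.5, 40.0 and 42.0 CPM in untreated MM1R and at 63.0, 67.7 and 73.9 CPM with RSL3. In MM1S cells it went from 36.7, 34.7 and 40.3 CPM to 62.8, 61.9 and 58.2 CPM. The log2 fold change was 0.75 ± 0.10 in MM1R (1.68-fold, FDR 0.00211) and 0.71 ± 0.10 in MM1S (1.64-fold, FDR 0.002), and the lines differed by 0.04 (95% interval -0.25 to 0.33). GCLC overlaps the long non-coding genes GCLC-AS1, LINC01564 and an unnamed one at 805, 85 and 529 exonic bases, and strand use in the counting is not given in the sources used here.

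Within libraries the ratio of GCLM to GCLC counts moved towards GCLM. It was 0.518 to 0.548 in untreated MM1R, 0.620 to 0.734 with RSL3 and 0.671, 0.840 and 0.812 with Fer-1 + RSL3 in replicates 1 to 3, the highest being the library with the mixed signal. In MM1S cells it was 0.608 to 0.737 untreated, 0.995 to 1.09 with RSL3 and 0.827 to 0.995 with Fer-1 + RSL3. In both lines the untreated libraries lay below the RSL3 libraries, and all MM1S libraries with RSL3 above all MM1R ones. Per kilobase GCLC remained the more abundant transcript in all groups, for example 16.1 ± 0.643 against 13.0 ± 1.02 CPM per kb for GCLM in MM1S with RSL3.

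**Figure D2:**
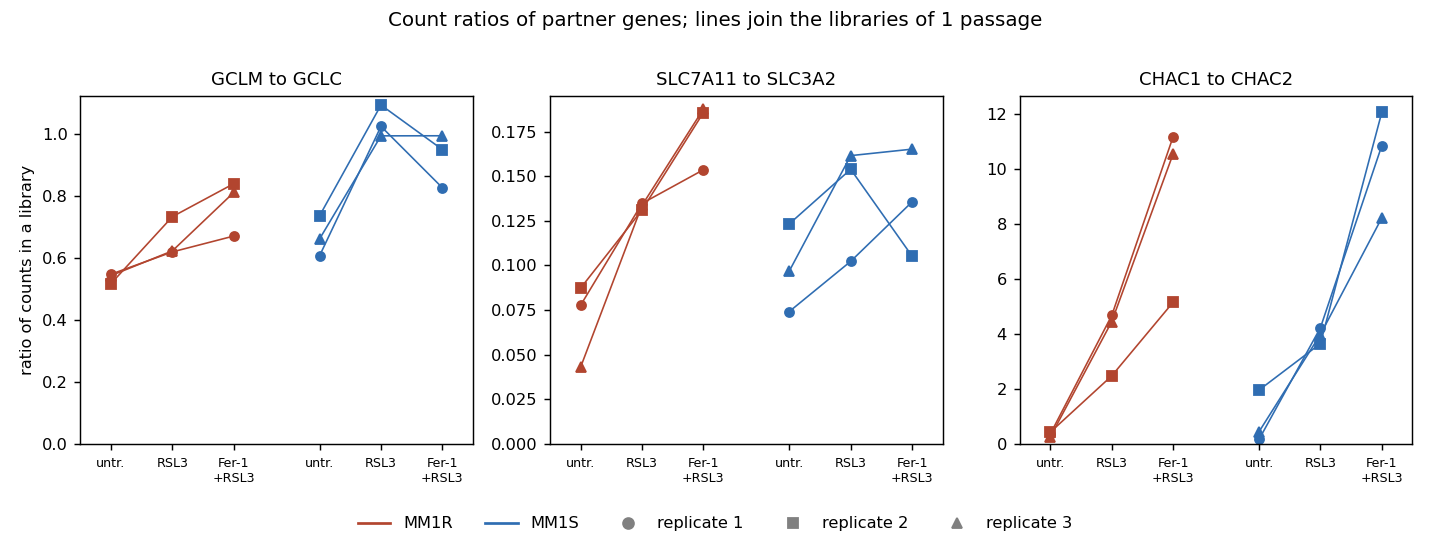
Ratio of counts of partner genes in each library, for GCLM to GCLC, SLC7A11 to SLC3A2 and CHAC1 to CHAC2, by line (red MM1R, blue MM1S), treatment and passage (joined points). The GCLM to GCLC ratio rose from 0.518 to 0.548 in untreated MM1R to 0.620 to 0.734 with RSL3, and the CHAC1 to CHAC2 ratio rose in every passage, first with RSL3 and again with Fer-1 + RSL3.

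The last step of synthesis and the recycling enzyme changed little. GSS (chr20:33516235-33543830 in hg19, minus strand), glutathione synthetase, was at 38.8, 50.002 and 60.7 CPM in untreated MM1R and at 43.6, 46.5 and 57.8 CPM with RSL3. It was at 41.3, 37.7 and 38.7 CPM in untreated MM1S and at 41.8, 38.4 and 43.3 CPM with RSL3. The groups overlapped in both lines. Averaged over both lines the log2 fold change was 0.03 with a 95% interval of -0.21 to 0.26, which leaves out a rise of the size seen for GCLC. MYH7B, which overlaps 158 exonic bases of GSS on the other strand, held at most 25 counts in a library.

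GSR (chr8:30535583-30585363 in hg19, minus strand), glutathione reductase, was at 132, 144 and 153 CPM in untreated MM1R and at 145, 169.8 and 189.6 CPM with RSL3. In MM1S cells it was at 169, 166 and 178 CPM untreated and at 163, 247 and 226 CPM with RSL3. It was higher with RSL3 in 5 of 6 passages, MM1S passage 16 being the exception. The mean log2 fold change of 0.27 ± 0.10 did not pass the test (FDR 0.0725). With the passage as a block it was 0.26 (FDR 0.014), and without MM1S RSL3 replicate 1 it was 0.36 (FDR 0.00845). With Fer-1 + RSL3 the levels were 161, 199 and 195 CPM in MM1R and 211, 248 and 224 CPM in MM1S, all above the untreated libraries of the line, and the mean log2 fold change against untreated was 0.39 ± 0.10 (FDR 0.011), or 0.36 (FDR 0.0311) without MM1R Fer-1 + RSL3 replicate 2.

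CHAC1 (chr15:41245160-41248710 in hg19, plus strand), which cleaves glutathione and is widely used as a marker of ATF4 activity and of ferroptosis inducers, had the largest mean rise of the 9 genes. In MM1R cells it went from 8.94, 12.9 and 8.86 CPM untreated to 76.7, 65.6 and 112 CPM with RSL3. In MM1S cells the untreated libraries were far apart, at 4.66, 58.7 and 16.01 CPM, and the RSL3 libraries were at 76.7, 97.3 and 132 CPM. No untreated library reached an RSL3 library of its line, but untreated MM1S replicate 2 came close to the lowest. The log2 fold change was 3.05 ± 0.59 in MM1R, or 8.29-fold (FDR 0.0103), and 1.95 ± 0.55 in MM1S, or 3.86-fold (unadjusted p 0.0026, FDR 0.0575 in edgeR's quasi-likelihood test). Within MM1S passages 16, 22 and 23 the log2 differences were 4.01, 0.73 and 3.04. With the passage as a block the MM1S value was 2.34 (FDR 0.0107), and without untreated MM1S replicate 2 it was 3.31 (FDR 0.00329). In DESeq2 it was 1.94 (FDR 0.0302), and with no filter on low counts 1.94 (FDR 5.54e-27). Without untreated MM1S replicate 1 it was 1.45 (FDR 0.132), and a fit with only the MM1S libraries gave 1.95 (FDR 0.19). In MM1R the FDR was 0.0613 without untreated replicate 1 and 0.0546 without untreated replicate 3.

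The untreated MM1S library with the high CHAC1 level was high for other members too. Of the 3 untreated MM1S libraries, replicate 2 had the highest SLC7A11, SLC3A2, CHAC1 and CBS levels, at 30.4, 246, 58.7 and 1.15 CPM, and replicate 1 the lowest of all 4, at 7.36, 99.1, 4.66 and 0.207 CPM. GCLM and GCLC were highest in replicate 3 and GSS in replicate 1, and CTH lay between 3.26 and 3.81 CPM in all 3. The part of this library in the MM1S results was not tested beyond leaving it out.

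CHAC2, the paralog of CHAC1 that breaks down glutathione slowly, was not higher in any passage. It was at 24.1 to 33.2 CPM in untreated MM1R and 16.4 to 26.4 CPM with RSL3, and at 27.5 to 35.6 CPM and 18.1 to 33.2 CPM in MM1S. In all 6 passages the RSL3 library was the lower one, by 0.10 to 0.60 on the log2 scale, and the mean log2 fold change was -0.30 ± 0.16 (FDR 0.236). The ratio of CHAC1 to CHAC2 counts went from between 0.267 and 0.435 in untreated MM1R to between 2.48 and 4.68 with RSL3, and from between 0.170 and 1.96 to between 3.65 and 4.23 in MM1S. The ratios did not overlap between treatments in either line.

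The enzymes that make cysteine from methionine were low. CTH (chr1:70876901-70905534 in hg19, plus strand), cystathionine gamma-lyase, which releases cysteine from cystathionine, was at 4.78, 4.30 and 3.48 CPM in untreated MM1R and 15.7, 10.1 and 14.8 CPM with RSL3. In MM1S cells it was at 3.68, 3.81 and 3.26 CPM untreated and 21.8, 6.66 and 6.24 CPM with RSL3. MM1S RSL3 replicate 1 was thus far above the other libraries of its group, and no group overlapped the untreated one. The log2 fold change was 1.69 ± 0.37 in MM1R (3.22-fold, FDR 0.0214) and 1.68 ± 0.38 in MM1S (3.20-fold, FDR 0.022). Without MM1S RSL3 replicate 1 the MM1S value fell to 0.85 (FDR 0.0939). Leaving out untreated MM1S replicate 1, 2 or 3 gave FDRs of 0.0963, 0.0674 and 0.088, and in MM1R leaving out RSL3 replicate 1 or 3 or untreated replicate 1, 2 or 3 gave FDRs of 0.0854, 0.0642, 0.0667, 0.0797 and 0.0864.

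CBS (chr21:44473301-44497053 in hg19, minus strand), cystathionine beta-synthase, which makes the cystathionine that CTH cleaves, was near the detection floor. It had 5, 10 and 3 counts in untreated MM1R, 5, 9 and 3 with RSL3, and 21, 18 and 6 with Fer-1 + RSL3. In MM1S cells it had 4, 22 and 10 counts, then 11, 30 and 17, then 18, 25 and 16. The groups overlapped throughout, and the mean log2 fold change with RSL3 was 0.36 with a wide 95% interval of -0.58 to 1.31. CBSL, a near-identical copy that can split its reads, had at most 6 counts in a library.

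**Figure D3:**
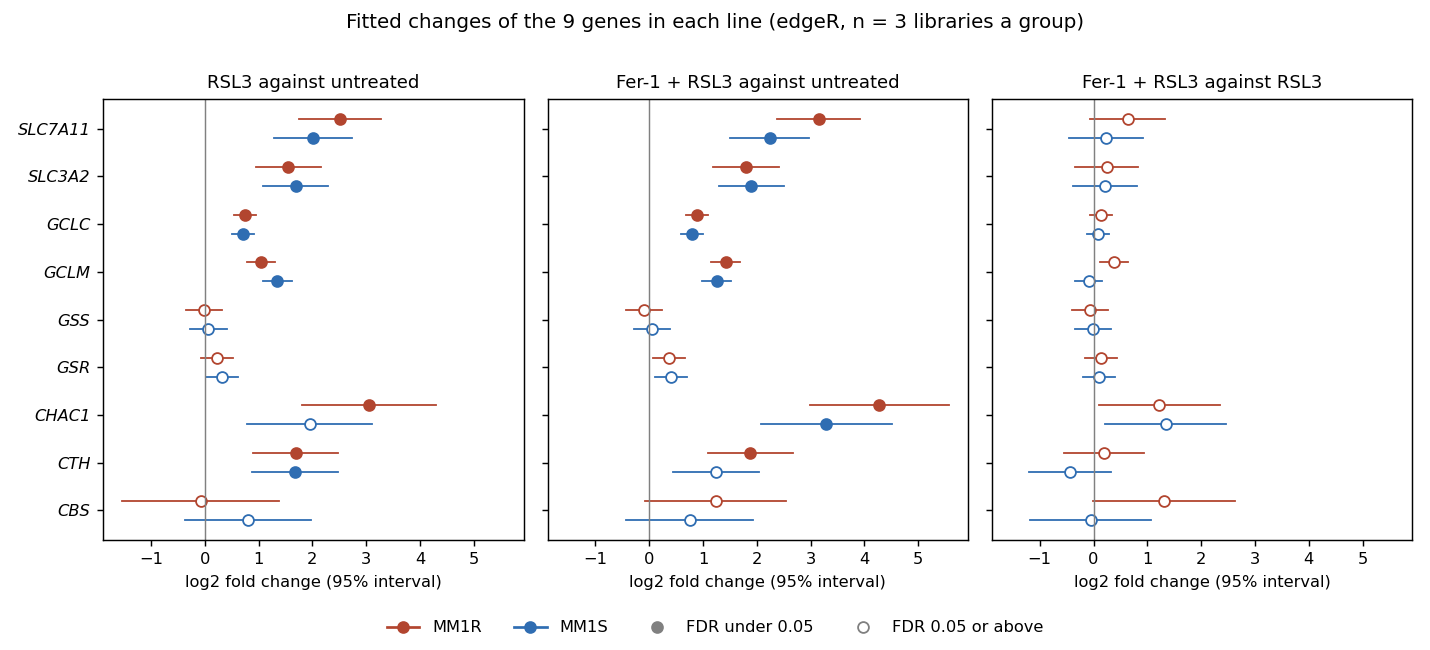
Fitted log2 fold change (point) with its 95% interval (bar) for each gene in MM1R (red) and MM1S (blue), for RSL3 against untreated, Fer-1 + RSL3 against untreated and Fer-1 + RSL3 against RSL3. Filled points have an FDR under 0.05. In the right panel no point is filled and the largest values that recur in both lines are those of CHAC1, 1.22 and 1.34.

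With Fer-1 + RSL3 the members that rose with RSL3 again lay above the untreated level. Against RSL3 alone, 0 of the 9 genes passed the test averaged over both lines, with 1 of them, CHAC1, at an unadjusted p under 0.05. In edgeR's quasi-likelihood test 0.119% of all genes tested passed in that comparison, and 1826 of 14281 had an unadjusted p under 0.05. In MM1R and MM1S taken alone 0% passed, with 881 and 821 genes at an unadjusted p under 0.05. Against untreated cells, 7 of the 9 genes rose with Fer-1 + RSL3 in the averaged comparison (background 10.5%), the same 6 as with RSL3 and GSR. In MM1R 6 rose (background 5.57%) and in MM1S 5 (background 2.6%), with CTH at 1.24 (FDR 0.0698) in MM1S. That CTH value passed in DESeq2 (FDR 0.0162), with no filter on low counts (FDR 2.06e-05) and with the passage as a block (FDR 0.0186). With libraries left out in turn its FDR reached 0.196. For 7 genes every Fer-1 + RSL3 library lay above every untreated library in both lines, as did 8.36% of all genes tested. These comparisons share the RSL3 or the untreated libraries with the RSL3 comparison, so they are not separate evidence.

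Averaged over both lines, CHAC1 had the largest log2 fold change of the 9 genes between Fer-1 + RSL3 and RSL3 alone, while in MM1R the low-count CBS had a larger one (1.31 against 1.22). It reached 197, 135 and 262 CPM in MM1R and 215, 308 and 253 CPM in MM1S, above every RSL3 library of its line in both lines. It was the only 1 of the 9 genes to do so in both lines, where 1.42% of all genes tested did. Within passages 4, 6, 7, 16, 22 and 23 the log2 difference between Fer-1 + RSL3 and RSL3 was 1.36, 1.04, 1.23, 1.49, 1.66 and 0.93. The mean log2 fold change was 1.28 ± 0.38, or 2.43-fold (unadjusted p 0.00353, FDR 0.184 in edgeR's quasi-likelihood test), and so did not pass the test. Its value over the alternatives that keep all libraries was 1.27 to 1.28, with FDRs of 0.0509 with the passage as a block, 0.114 in DESeq2 and 7.71e-25 with no filter on low counts. Without MM1R Fer-1 + RSL3 replicate 2, the library with the mixed signal, it was 1.39 (FDR 0.231). Against untreated cells CHAC1 with Fer-1 + RSL3 was up 19.4-fold in MM1R (log2 4.28 ± 0.61, FDR 0.000844) and 9.79-fold in MM1S (log2 3.29 ± 0.58, FDR 0.0037).

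SLC7A11 was also higher with Fer-1 + RSL3 than with RSL3 alone in 6 of 6 passages, by 0.05 to 0.98 on the log2 scale, with a mean of 0.43 ± 0.23 (FDR 0.454), or 0.46 (FDR 0.565) without MM1R Fer-1 + RSL3 replicate 2. The highest passage value, 0.98, came from that library, and the next was 0.57. Without a filter on low counts its FDR was 0.00994. The groups did not overlap in MM1R but did in MM1S. GCLC was higher in 6 of 6 passages as well, by at most 0.19, at 71.6, 72.5 and 81.0 CPM in MM1R and 69.0, 64.8 and 59.8 CPM in MM1S. For GCLM the log2 fold change of Fer-1 + RSL3 against RSL3 was 0.37 ± 0.12 in MM1R (FDR 0.65) and -0.09 ± 0.12 in MM1S (FDR 0.975). The difference between these effects, 0.47 (95% interval 0.10 to 0.84), had a p of 0.0158 and an FDR of 1 in edgeR's quasi-likelihood test, where 0% of all genes tested passed and 128 had an unadjusted p under 0.05. Without MM1R Fer-1 + RSL3 replicate 2 that difference was 0.43 (FDR 1).

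For GCLM the Fer-1 + RSL3 levels were 48.1, 60.9 and 65.7 CPM in MM1R and 57.0, 61.5 and 59.4 CPM in MM1S. For GSS they were 41.9, 41.0 and 57.6 CPM in MM1R and 40.8, 39.0 and 42.6 CPM in MM1S, again within the range of the other groups. CTH was at 15.6, 12.2 and 18.5 CPM in MM1R and at 9.85, 6.89 and 8.70 CPM in MM1S, so that the single high MM1S RSL3 library had no counterpart here. For CBS the mean log2 fold change against untreated was 0.99 (FDR 0.107), and with the passage as a block it was 1.04 (FDR 0.00835). Leaving out MM1R Fer-1 + RSL3 replicate 2 changed no call of the 9 genes in the MM1R or averaged comparisons, with values against untreated in MM1R of 3.20 in place of 3.15 for SLC7A11, 1.88 in place of 1.80 for SLC3A2, 1.39 in place of 1.42 for GCLM, 0.91 in place of 0.89 for GCLC, 4.49 in place of 4.28 for CHAC1 and 2.02 in place of 1.88 for CTH.

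HMOX1, measured beside them as a gene that answers to heme and oxidative stress, also stayed high. It was at 748, 685 and 1463 CPM with Fer-1 + RSL3 in MM1R and at 1220.3, 1142 and 975 CPM in MM1S, against 9.09 to 25.4 CPM in the 6 untreated libraries. The 685 CPM came from the library with the mixed signal. With RSL3 alone it was at 237, 243 and 1404 CPM in MM1R and at 2298, 310 and 434 CPM in MM1S. The Fer-1 + RSL3 library was thus the higher one in every passage but MM1S passage 16. GPX4, the target of RSL3, was at 257 to 331 CPM in untreated MM1R and 268 to 271 CPM with RSL3, and its mean log2 fold change was -0.02 (FDR 0.933).

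Between the untreated lines 0 of the 9 genes passed edgeR's quasi-likelihood test, where 10.5% of all genes tested did. At an unadjusted p under 0.05 there were 3 of the 9, and 3545 of all 14281 genes tested. SLC7A11 was lower in MM1R by 1.01 on the log2 scale (95% interval -1.76 to -0.27, FDR 0.0773), CHAC1 by 1.37 (interval -2.56 to -0.18, FDR 0.139), and GSS was 0.34 higher (interval 0.01 to 0.68, FDR 0.186). The SLC7A11 and CHAC1 values turned on single MM1S libraries. CHAC1 was -1.87 (FDR 0.0103) without untreated MM1S replicate 1 and near 0 without replicate 2. SLC7A11 was -1.39 (FDR 0.0046) and -0.40 in the same cases, and its FDR in DESeq2 was 0.0267.

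The order of the levels per kilobase ran as follows. In untreated MM1R cells SLC3A2 (69.3 ± 6.88 CPM per kb) was followed by GSR (47.1 ± 3.33), GSS (26.1 ± 5.73), GCLC (10.7 ± 0.346), CHAC1 (6.72, range 5.83 to 8.46), GCLM (4.45 ± 0.218), CTH (2.00 ± 0.316), SLC7A11 (0.926 ± 0.272) and CBS (0.131 ± 0.0778). Neighbours in this order did not overlap between libraries in MM1R. With RSL3, CHAC1 at 55.8 (43.1 to 73.8) came level with GSR at 55.5 ± 7.28, the 2 overlapping, while SLC7A11 at 5.31 overlapped CTH at 6.47 ± 1.43. With Fer-1 + RSL3, CHAC1 at 130.3 ± 42.0 (lowest, in the library with the mixed signal, 88.6) stood above GSR at 61.0 ± 6.84 without overlap, second to SLC3A2 at 240.7 ± 26.3. In untreated MM1S the order was the same but for CHAC1 and SLC7A11. CHAC1, at 17.4 (3.07 to 38.6), was ahead of GCLC at 9.84 ± 0.738. SLC7A11, at 1.87 ± 1.20, was ahead of CTH at 1.72 ± 0.137, and in both pairs the libraries overlapped. There CHAC1 also overlapped GSS (19.7 to 21.6) and GCLM (4.57 to 5.46), and SLC3A2 (52.6 to 130.6) overlapped GSR (54.8 to 58.7).

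The wider pathway was covered by 4 lists. Of the carriers that pair with SLC3A2 or move cystine, cysteine or neutral amino acids, 2 of 7 tested (11 listed) rose with RSL3 in the averaged comparison, where 8.7% of all genes tested rose, and 0 fell. They were SLC7A5, the large neutral amino acid carrier on the same anchor chain (log2 fold change 0.90 ± 0.19, FDR 0.00449), and SLC1A5, a glutamine carrier (0.37 ± 0.12, FDR 0.0463). SLC7A5 went from 306 to 367 CPM in untreated MM1R to 455 to 755 CPM with RSL3, and from 275 to 578 CPM to 670 to 1283 CPM in MM1S, with no overlap in either line. The list had a median log2 fold change of 0.37, against near 0 over all genes.

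Enzymes around the pathway moved less. Of the methionine cycle and cysteine use list, 2 of 13 tested (19 listed) rose and 2 fell, where 8.7% of all genes tested rose and 6.81% fell. MTRR, which reactivates methionine synthase (0.29 ± 0.08, FDR 0.0226), and SQOR, which oxidises sulfide (0.31 ± 0.09, FDR 0.0286), were higher, and MPST, a sulfurtransferase (-0.36 ± 0.10, FDR 0.0283), and AHCYL2, a relative of the enzyme that splits S-adenosylhomocysteine (-0.30 ± 0.09, FDR 0.0398), were lower. Of the glutathione breakdown, recycling and export list, 2 of 12 tested (17 listed) rose and 0 fell, the peptidases LAP3 (0.26 ± 0.07, FDR 0.0203) and CNDP2 (0.24 ± 0.07, FDR 0.0337), which can split the dipeptide left from glutathione. Of 21 tested enzymes that use glutathione (35 listed), 2 rose and 0 fell, GSTZ1, a glutathione transferase of tyrosine breakdown (0.50 ± 0.10, FDR 0.00395), and GLRX, the cytosolic glutaredoxin (0.44 ± 0.10, FDR 0.00578), a share near that of all genes tested. The medians of these 3 lists were -0.0006, -0.0143 and 0.0118. In MM1R taken alone, 0 genes of the 4 lists passed with RSL3 (2% of all genes tested rose). In MM1S taken alone only SLC7A5 and GLRX passed, as higher (2.5% of all genes tested rose). With Fer-1 + RSL3 against untreated, the 4 lists had 3, 3, 1 and 3 genes higher and 1, 1, 0 and 2 lower. Of all genes tested, 10.5% were higher and 8.47% lower. Against RSL3 alone the 4 lists had 0 in either direction. These Fer-1 + RSL3 counts include MM1R replicate 2, the library with the mixed signal, and are not given without it.

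**Figure D4:**
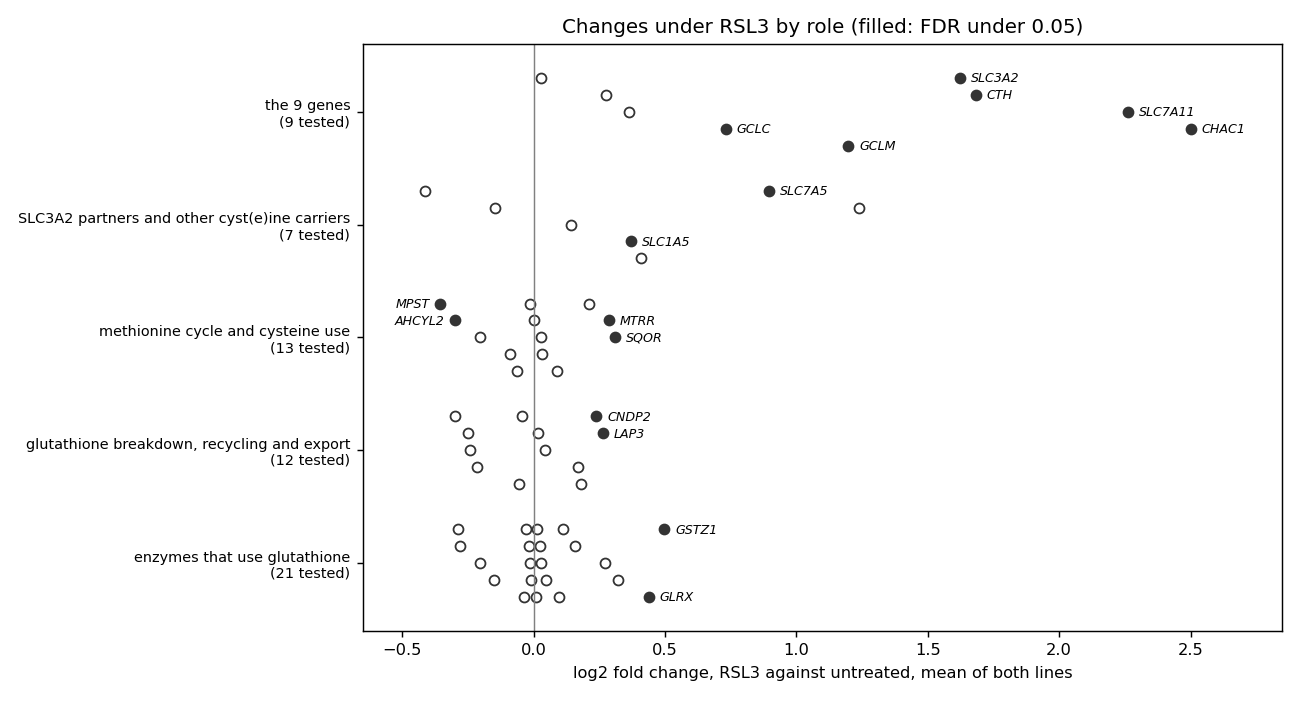
Log2 fold change of RSL3 against untreated, averaged over both lines, for the 9 genes and for the tested genes of 4 wider lists, 1 point a gene. Filled and named points have an FDR under 0.05. Of the 9 genes 6 lie at 0.73 or above, and of the wider lists only SLC7A5, at 0.90, is filled beyond 0.50.

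Among all genes tested, those whose changes over passages were most like each member's were found from the 12 log2 differences of RSL3 and Fer-1 + RSL3 libraries from the untreated library of the same passage, which share their untreated libraries. The measure is the root mean square difference, and it is a description. For SLC7A11 the nearest were ADM2 (0.372), DDIT3 (0.413), a stress transcription factor, and NEAT1 (0.572). For SLC3A2 they were CEBPB (0.320), MKX (0.356) and LINC-PINT (0.357). GCLC lay closest to AIFM2 (0.156), the quinone reductase also called FSP1, NATD1 (0.163) and TXNRD1 (0.164), thioredoxin reductase, and GCLM to TMEM178B (0.272), ASF1A (0.273) and MBNL2 (0.320). CTH was nearest to BACH1 (0.338), PMAIP1 (0.361) and FAM189A2 (0.374). CHAC1 had no close neighbour, the nearest being the heat shock gene DNAJB1 (0.984), then ADRA1A (1.02) and SLC7A11 (1.05).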

How the data were processed

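RNA of 18 libraries was sequenced in pairs on a BGISEQ-500. Per the submitters' processing notes, the authors checked reads with FastQC 0.11.5, aligned them to hg19 with STAR 2.7.3a and used DESeq2. They deposited raw read counts for 43735 genes and a second table of normalized signal for 29553 genes, the counts over 1 size factor per library. The counting tool, the annotation and the use of strand are not given in the sources used here, so overlapping and near-identical genes are uncertain. Raw counts were used as deposited, and the normalized signal gave the authors' size factors for an alternative.

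Genes were kept by filterByExpr with a minimum count of 10, which left 14281 genes with 99.9% of all counts. After TMM scaling (edgeR 4.0.16, limma 3.58.1, R 4.3.3) all 18 libraries were fitted with 6 group means (12 residual degrees of freedom) and compared by the quasi-likelihood test of edgeR, the FDR being adjusted over all genes tested by the Benjamini-Hochberg method. A gene passed at an FDR under 0.05. SE is the standard error of the log2 fold change, and intervals are 95%. Passage differences used log2 CPM with a prior count of 2. Per-kilobase levels used the length of the canonical transcript in an hg19 annotation.

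Replicate numbers stand for passages in the labels and so pair the libraries of a line. Same-passage libraries deviated together from their group means with a median correlation of 0.250 in MM1R (0.0338 to 0.516, 9 pairs) and 0.416 in MM1S (0.216 to 0.681, 9 pairs). Alternatives were the passage as a block, DESeq2 1.42.0, RLE scaling, the authors' size factors, no filter on low counts, only the libraries of a line, a further minimum log2 fold change of 1, and leaving out each library in turn. The 9 genes, the lists and the motifs were chosen with earlier results of these data known. The text names the 9 genes, CHAC2, the genes of the 4 lists past the test in the averaged RSL3 comparison, and the 3 nearest genes of each risen member. The line check took genes at least 8 times higher in every library of a line, at 5 CPM or more, and its reference without MM1R Fer-1 + RSL3 replicate 2 was chosen after its values were seen, as were HMOX1 and GPX4 as genes to print and the values given without that library. The steps were tested on simulated data.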

Additional observations from a re-analysis of the deposited data

How the results depend on the processing

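The 6 genes called in the averaged RSL3 comparison were called under every alternative run except the added minimum log2 fold change of 1, which left 5 (not GCLC), and leaving out each library in turn gave 6 to 7 calls. With that minimum, 462 of 14281 genes tested were called, against 2215 without it. Calls over all genes also moved with the library left out, such as 1405 of 14558 without MM1R RSL3 replicate 1. For RSL3 against untreated in MM1R, leaving out each library in turn gave 3 to 6 calls, the lowest without untreated replicate 1 (GCLC, GCLM and SLC7A11). That fit called 113 of 14599 genes tested, against 480 of 14281 with all libraries. In MM1S leaving out each library in turn gave 4 to 5 calls, and a fit with only the 9 libraries of the line gave 2, GCLC and GCLM. This MM1S fit called 48 of 13557 genes tested, against 524 of 14281 with all libraries. In it SLC7A11 was at 2.00 (FDR 0.059), SLC3A2 at 1.69 (FDR 0.0613) and CTH at 1.67 (FDR 0.114), values close to those of the fit of all libraries. The fit of the same size in MM1R gave 6, with 735 of 13731 genes tested called. With the passage as a replicate block MM1S had 6 calls, the averaged RSL3 comparison 7 and the averaged Fer-1 + RSL3 comparison against untreated 8. Over all 14281 genes tested, the block gave 1904 calls in place of 524 for RSL3 in MM1S. It gave 4345 in place of 2215 for averaged RSL3, and 4755 in place of 2715 for averaged Fer-1 + RSL3 against untreated. For Fer-1 + RSL3 against untreated, GSR also passed under the block in MM1R (0.37, FDR 0.0183) and MM1S (0.40, FDR 0.0167). In the same comparison CTH passed in MM1S (1.23, FDR 0.0186) and CBS in MM1R (1.25, FDR 0.0398). Over all genes tested, the block there gave 3173 calls in place of 1317 in MM1R and 2093 in place of 659 in MM1S. It changed no other call of the 9 genes. No paired analysis was possible for the untreated lines, which share no passages. Averaged over both lines, Fer-1 + RSL3 against RSL3 had 2 calls with no filter on low counts, CHAC1 and SLC7A11, and 0 with each library left out. With no filter 571 of 27858 genes were called in it, against 17 of 14281 with the filter. Untreated MM1R against untreated MM1S had 1 call in DESeq2, where 1908 of 14281 genes were called. It had 2 with no filter, where 1852 of 27858 genes were called, and 0 to 2 with libraries left out. Over all genes, 805 of 14638 were called in it without untreated MM1R replicate 2, against 1498 of 14281 with all libraries. The interaction of line and RSL3 had 1 call with no filter, CHAC1, where 30 of 27858 genes were called. The cause was not tested.

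Signs turned only where 1 library was left out, and for values that did not pass the test. These were GSS with RSL3 in MM1R (-0.17 to 0.15) and averaged (-0.0512 to 0.11), GSS with Fer-1 + RSL3 against untreated in MM1R (-0.27 to 0.077) and averaged (-0.11 to 0.066), GSS against RSL3 alone in MM1R (-0.26 to 0.0423), MM1S (-0.0601 to 0.0254) and averaged (-0.13 to 0.0182), CBS with RSL3 in MM1R (-0.56 to 0.49) and against RSL3 alone in MM1S (-0.29 to 0.35), CTH against RSL3 alone in MM1S (-0.74 to 0.39) and averaged (-0.27 to 0.29), and GSR against RSL3 alone in MM1S (-0.0579 to 0.22). RLE scaling and the authors' size factors changed no call. With 3 to 30 counts, CBS is limited by depth.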
